A study of Mus musculus with 9 samples.

Results

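The genes described are Fcgr1, Fcgr2b, Fcgr3, Fcer1g, Msr1 and Mertk, 6 receptors or receptor subunits of phagocytes, chosen by name among the 4277 genes in either of the authors' 2 tables of group comparisons. All 6 stand in the table of stroke against sham, and 2 of them, Msr1 and Fcer1g, stand in the table of mmpp against stroke. RNA came from the thalamus of wild-type C57/BL mice on day 7, with 9 samples in 3 groups of 3. Sham and stroke are named as in the labels, where the stroke is photothrombotic, meaning that light activates a dye and blood vessels clot. The third group, mmpp, keeps its label, which is not spelt out; the study injected melanin nanozyme, that is, pigment particles that act like an enzyme, but the sources do not state which groups had the agent or the surgery. Whether each sample is a single mouse or pooled mice is not stated, so p-values cover the variation among these samples alone, some of which may be technical. Slc17a6, a vesicular glutamate transporter gene of thalamic relay neurons, was at a mean of 63.7 TPM in sham in the authors' deposited table.

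Fc gamma receptors bind the constant part of IgG antibodies and let phagocytes take up what antibodies coat. In the mouse, the activating receptors Fcgr1, Fcgr3 and Fcgr4 signal through the common gamma chain, encoded by Fcer1g, whose tyrosine motif (ITAM) recruits the kinase Syk, while Fcgr2b carries an inhibitory motif (ITIM) that recruits phosphatases. Msr1 encodes a class A scavenger receptor, which binds modified lipoproteins and other polyanions, and Mertk encodes a receptor kinase that recognises dying cells through the bridging proteins Gas6 and Pros1. In the brain, microglia and macrophages carry these receptors, and Mertk is also known from astrocytes.

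The sequences upstream of 4 of these genes are shown because the genes rose in the same comparison and differ in what their promoters hold. They are RefSeq windows of build GRCm38.p6, from 250 bases before to 50 after the annotated start, whereas the authors' notes name GRCm39. Of the 6 genes, 5 had a window, and Msr1 had none. Capitals mark the first 2 of 4 motifs, searched on both strands and chosen with these promoters in view: GAGGAAG, the kind of site that PU.1 binds, and TTCNNNGAA, the interferon gamma activated site.
Fcgr1 promoter, chr3:96293920-96294219, minus strand: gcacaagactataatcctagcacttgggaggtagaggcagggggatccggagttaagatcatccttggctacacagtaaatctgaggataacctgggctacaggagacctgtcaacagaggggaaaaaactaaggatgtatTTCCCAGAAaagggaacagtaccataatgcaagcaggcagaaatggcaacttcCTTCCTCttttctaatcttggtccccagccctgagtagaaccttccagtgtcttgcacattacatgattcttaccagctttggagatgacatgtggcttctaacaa
Fcgr3 promoter, chr1:171059354-171059653, minus strand: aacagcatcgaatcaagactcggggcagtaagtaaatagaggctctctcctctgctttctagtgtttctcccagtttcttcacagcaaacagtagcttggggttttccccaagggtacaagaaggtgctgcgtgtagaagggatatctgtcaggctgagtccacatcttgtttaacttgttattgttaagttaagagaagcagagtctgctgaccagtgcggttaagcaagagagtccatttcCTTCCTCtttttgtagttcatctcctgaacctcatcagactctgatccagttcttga
Fcer1g promoter, chr1:171234300-171234599, minus strand: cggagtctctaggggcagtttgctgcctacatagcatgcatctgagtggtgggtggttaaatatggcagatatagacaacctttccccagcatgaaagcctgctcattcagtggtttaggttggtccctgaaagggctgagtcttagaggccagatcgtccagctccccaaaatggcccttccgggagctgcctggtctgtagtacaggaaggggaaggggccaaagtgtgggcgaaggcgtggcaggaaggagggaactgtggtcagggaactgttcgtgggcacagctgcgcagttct
Mertk promoter, chr2:128698665-128698964, plus strand: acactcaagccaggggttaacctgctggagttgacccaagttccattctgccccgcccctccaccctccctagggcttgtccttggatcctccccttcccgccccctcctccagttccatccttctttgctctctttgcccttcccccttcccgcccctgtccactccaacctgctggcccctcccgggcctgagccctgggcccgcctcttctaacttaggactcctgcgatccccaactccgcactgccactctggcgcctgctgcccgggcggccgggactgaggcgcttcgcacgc
The window of Fcgr1 held TTCNNNGAA as TTCCCAGAA at -109 from the start and GAGGAAG, on the other strand, at -56. Fcgr3 held GAGGAAG at -7 from the first of its annotated starts. The neighbouring receptor gene Fcgr4 held GAGGAAG at -23 and also, at -73, an interferon-stimulated response element, searched as a pair of GAAA with any 2 bases between them. The windows of Fcgr2b, Fcer1g and Mertk held none of these letters, and an LXR-type repeat, a pair of AGGTCA with any 4 bases between them, was in no window of these genes. Among 32851 windows of the same length, 13.6% held GAGGAAG, 8.3% TTCNNNGAA, 3.44% the response element and 0.0152% the LXR-type repeat. A match is a description of letters, and no binding was measured. Base composition also differed. GC content was 66.0% for Mertk with 14 CpG dinucleotides and 46.0% for Fcgr1 with 1, against a median of 52.7% and 7 over all windows.

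A second sequence is shown because it bears on how well Fcgr2b and Fcgr3 can be told apart by reads. Their coding sequences share an identical run of 129 bases, both genes lying on chromosome 1, from base 278 of the Fcgr2b and base 263 of the Fcgr3 coding sequence, counted from the start codon in the GENCODE M21 transcripts.
Shared run of Fcgr2b and Fcgr3: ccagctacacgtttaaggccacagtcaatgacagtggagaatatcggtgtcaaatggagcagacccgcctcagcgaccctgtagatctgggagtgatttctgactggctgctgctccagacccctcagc
Of all windows of 50 bases in the coding sequence, 17.0% of those in Fcgr2b and 22.0% of those in Fcgr3 occurred in the other gene. Fcgr1, Fcer1g, Msr1, Mertk and Fcgr4 shared no such window with any other gene. No source used here states how reads matching several genes were assigned, so the split between Fcgr2b and Fcgr3 is uncertain. Their summed mean was 34.5 TPM in sham and 476 TPM in stroke, a ratio of 13.8, and it too can shift with that split, since TPM is corrected for the length of each gene.

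Stroke was set against sham to find the thalamic transcripts that differed on day 7. All 6 genes rose, from 3.42-fold for Mertk to 271-fold for Msr1, each with a q-value under 0.05 in the authors' deposited table. Over all 20804 genes that the authors adjusted, 9.67% were higher and 3.37% lower with such a q-value, and 11.5% were listed higher and 7.59% lower with any q-value under 1. Of the 4071 listed genes, 2012 rose and 701 fell. The 6 genes were chosen among listed genes with earlier results of these data known, so their being listed is not a finding. Values are the authors' group means in TPM (transcript abundance corrected for gene length and library size), and no value per sample was analysed, so neither a spread nor overlap between samples can be given. The median log2 fold change of the 6 genes was 4.01, beside 1.27 over all listed genes and 2.32 over those called higher, with genes at the floor in either group left out. The floor, 0.0001 TPM, stands in the tables for a gene not detected. In tissue RNA, more cells of a type and more RNA per cell cannot be told apart.

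**Figure D1:**
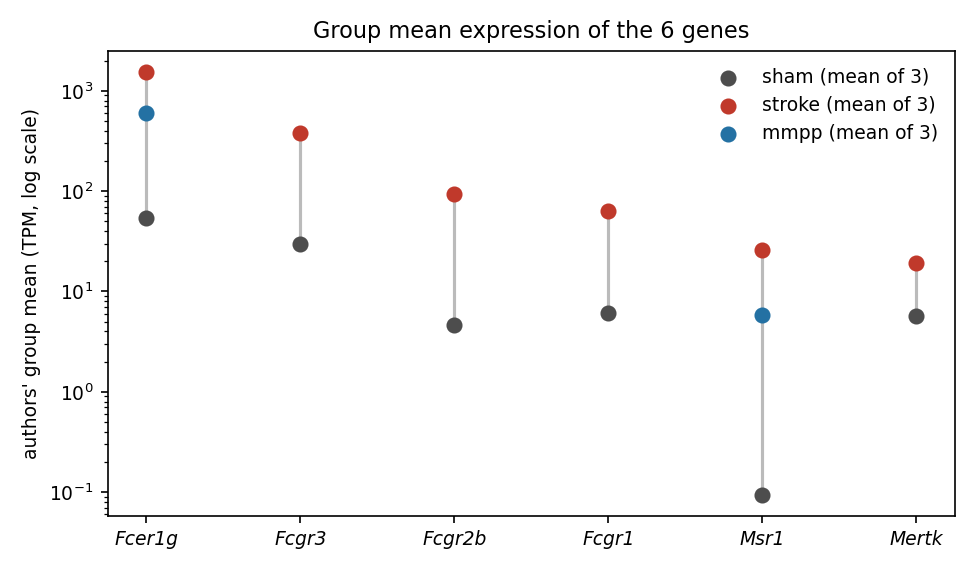
Authors' group mean of each gene in TPM (log axis) in sham, stroke and mmpp, each a mean of 3 samples with no spread given. The stroke mean lies above the sham mean for all 6 genes, from 5.63 to 19.3 TPM for Mertk and from 0.0948 to 25.7 TPM for Msr1; the mmpp mean is drawn for Fcer1g and Msr1, the only 2 of the 6 that the second table lists.

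Fcer1g (ENSMUSG00000058715), the shared signalling chain, had the highest level in both groups. Its mean was 53.5 TPM in sham and 1543 TPM in stroke, a rise of 28.8-fold (q = 5.8e-19, authors' deposited table). Its p-value was number 112 from the smallest among all adjusted genes, as recovered from the authors' deposited p- and q-values. Tyrobp, the other main ITAM adaptor of myeloid cells, had means of 101.8 and 1992 TPM and rose as well (q = 1.53e-16, authors' deposited table). Tyrobp was thus at 1.90 times the level of Fcer1g in sham and 1.29 times in stroke.

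The activating receptor chains rose as well. Fcgr1 (ENSMUSG00000015947), which encodes the high-affinity IgG receptor CD64, was at 6.04 TPM in sham and 62.8 TPM in stroke, a rise of 10.4-fold (q = 6.7e-17, authors' deposited table). Fcgr3 (ENSMUSG00000059498), a low-affinity activating receptor, was at 29.9 TPM in sham and 383 TPM in stroke, a rise of 12.8-fold (q = 8.86e-16, authors' deposited table). Fcgr4, the remaining activating receptor and not among the 6, was at 1.47 TPM in sham and 55.9 TPM in stroke, a rise of 38.0-fold (q = 2.82e-29, authors' deposited table). Fcgr2b (ENSMUSG00000026656), the inhibitory receptor, was at 4.63 TPM in sham and 93.9 TPM in stroke, a rise of 20.3-fold (q = 9.86e-14, authors' deposited table).

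The makeup of the receptor transcripts is given as a share of the summed mean of the 4 Fc gamma receptors, which was 42.0 TPM in sham and 595 TPM in stroke. Fcgr3 took 71.1% in sham and 64.3% in stroke. Fcgr1 took 14.4% and 10.5%, Fcgr2b 11.0% and 15.8%, and Fcgr4 3.51% and 9.4%, in the same order. Fcgr3 therefore had the largest share in both groups, and Fcgr1 ranked above Fcgr2b in sham but below it in stroke. The summed activating receptors were at 8.08 times the level of Fcgr2b in sham and 5.34 times in stroke. Fcer1g was at 1.43 times the level of the summed activating receptors in sham and 3.08 times in stroke. These ratios of group means have no error, the differences between groups were not tested, and the shares of Fcgr2b and Fcgr3 rest on the uncertain split of their reads.

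**Figure D2:**
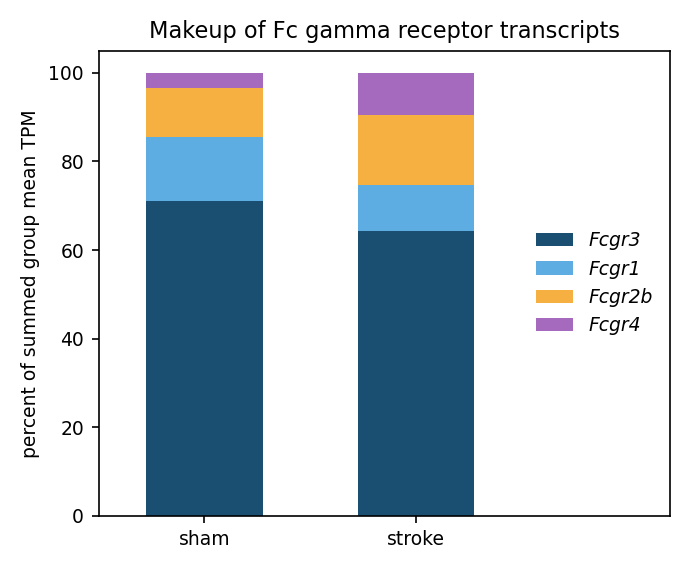
Share of each Fc gamma receptor gene in the summed group mean TPM of the 4 genes (percent), in sham and stroke; each bar is built from means of 3 samples and carries no error. Fcgr3 has the largest share in both, at 71.1% and 64.3%, and the share of Fcgr4 is 3.51% in sham and 9.4% in stroke.

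Msr1 (ENSMUSG00000025044), the scavenger receptor, had the largest fold of the 6 genes and the lowest sham level. Its mean was 0.0948 TPM in sham and 25.7 TPM in stroke, a rise of 271-fold (q = 4.2e-25, authors' deposited table). It was number 10 by fold among the 1920 genes called higher and off the floor. A sham mean this near 0 leaves the size of the fold uncertain: the log2 fold change was 8.08 as deposited, 7.05 with 0.1 TPM added to both means and 4.61 with 1 TPM added.

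Mertk (ENSMUSG00000014361), the receptor kinase for dying cells, had the smallest fold of the 6. Its mean was 5.63 TPM in sham and 19.3 TPM in stroke, a rise of 3.42-fold (q = 3.05e-06, authors' deposited table). It was number 1260 by fold among the same 1920 genes. In sham Mertk stood next to Fcgr1 and above Fcgr2b, and in stroke it was the lowest of the 6, below Msr1. Whether neighbours in these orders differ cannot be tested from group means.

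Genes around the receptors were described with 12 lists holding 158 genes, chosen with earlier results of these data known, with Fcgr2b standing in 2 of them. Leaving out the 6 genes, 88 identifiers of these lists stood in the stroke against sham table, of which 78 rose and 1 fell. Their median log2 fold change was 3.58. Nothing is read from a gene's absence, since the tables hold only genes past a p-value and a fold limit.

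Below the activating receptors, 20 of 26 kinase and effector genes rose and 1 fell. The smallest q-values were those of Pik3r5, a regulatory subunit of phosphoinositide 3-kinase gamma (11.5-fold, q = 5.56e-26), the exchange factor Vav1 (13.1-fold, q = 7.32e-25) and Ncf1, a subunit of the phagocyte NADPH oxidase (11.9-fold, q = 7.52e-25), in the authors' deposited table. Syk, the kinase that docks on the ITAM, was at 2.68 TPM in sham and 32.3 TPM in stroke in the authors' deposited table (q = 2.57e-21). The member that fell was Vav3, from 21.03 to 5.82 TPM (q = 0.00303, authors' deposited table), and Src was listed lower at 67.3 and 32.4 TPM (q = 0.126, authors' deposited table). These 3 genes were named after their values were seen.

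Inhibitory genes rose in the same comparison. Of 16 inhibitory phosphatase and ITIM receptor genes, 14 symbols were listed, all higher, on 15 identifiers of which 14 rose, Fcgr2b included. Inpp5d, the lipid phosphatase SHIP1 that Fcgr2b recruits, was at 4.96 TPM in sham and 62.9 TPM in stroke (q = 7e-28, authors' deposited table). Ptpn6, the tyrosine phosphatase SHP-1, was at 5.71 and 109 TPM (q = 1.69e-25, authors' deposited table). Lilrb4a, a myeloid ITIM receptor, stands on 2 identifiers in the tables, which rose 314-fold and 216-fold, from sham means near 0 of 0.102 and 0.805 TPM (q = 1.2e-18 and 1.21e-18, authors' deposited table). The reference table names one of these identifiers as a separate predicted gene, and how reads shared by the pair were counted is not stated, so their split is uncertain.

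Other Fc receptors and adaptors were listed less fully. Of 12 further Fc receptor or Fc receptor-like genes, 2 rose: Fcrls, a microglial Fc receptor-like gene, from 36.3 to 683 TPM (q = 4.8e-24), and Fcrl1 from 0.399 to 6.74 TPM (q = 3.38e-10), in the authors' deposited table. Among 7 adaptor genes of the ITAM kind, 4 rose, Fcer1g and Tyrobp with Hcst, whose protein carries a different tyrosine motif, and Cd79b, a B cell receptor chain, at 0.672 TPM in sham and 7.41 TPM in stroke (q = 2.46e-09, authors' deposited table). A list of 11 immunoglobulin genes held IgG chains, the ligands of Fc gamma receptors, and chains of other antibody classes. Of these only Ighd, an IgD and not an IgG gene, was listed, at 0.158 TPM in sham and 0.612 TPM in stroke (q = 0.17, authors' deposited table). Nothing is read from the absence of the IgG genes.

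Of 20 scavenger receptor genes, 15 were listed, all higher, and 12 rose, Msr1 among them. Cd5l, a secreted macrophage protein, rose from 0.375 to 67.2 TPM (q = 2.91e-41, authors' deposited table). The lysosomal macrophage marker Cd68 rose from 34.9 to 2398 TPM (q = 4.79e-26, authors' deposited table). Stab1, the stabilin-1 receptor, rose from 14.3 to 126 TPM (q = 1.01e-25, authors' deposited table). Marco, a class A scavenger receptor like Msr1, was at the floor in sham and at 0.137 TPM in stroke (q = 0.126, authors' deposited table), and it was named after its values were seen.

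Of 9 TAM receptor and ligand genes, 4 rose, Mertk among them. Lgals3, a galectin that can bind Mertk, rose 40.8-fold from 15.3 TPM (q = 5.21e-40), and Pros1, the protein S bridging ligand, rose 6.87-fold from 4.35 TPM (q = 1.95e-06), in the authors' deposited table. Gas6, the other bridging ligand, named after its values were seen, was at 171 TPM in sham and 440.4 TPM in stroke (q = 1.46e-05, authors' deposited table). Axl and Tyro3, the other two receptors of the family, were not listed. The remaining listed gene, Tub, a neuronal gene whose product can bridge to Mertk, was lower at 35.8 and 16.9 TPM (q = 0.169, authors' deposited table). Of 28 genes for recognising and engulfing dying cells, 14 were listed and all of these rose. The smallest q-values were those of Dock2 (15.1-fold, q = 1.8e-23), the nucleotide receptor P2ry6 (14.2-fold, q = 1.03e-19) and C1qc (16.5-fold, q = 1.25e-18), in the authors' deposited table. Among 8 regulators linked to Mertk, mostly nuclear receptor genes of the LXR, RXR and PPAR kind, only Stat6 was listed, and it rose 3.18-fold (q = 1.62e-08, authors' deposited table).

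Transcription factor genes of myeloid cells were listed for 10 of 12, of which 8 rose. Irf8 rose 12.9-fold (q = 8.18e-20) and Spi1, which encodes PU.1, from 10.4 to 151 TPM (q = 1.31e-17), in the authors' deposited table. Mef2c was listed lower, at 7.96 and 3.32 TPM (q = 0.129, authors' deposited table), and was named after its values were seen. Of 7 interferon gamma pathway genes, 3 rose, with a median log2 fold change of 1.39, among them Ifngr1 3.66-fold (q = 1.41e-05) and Irf1 2.61-fold (q = 1.88e-05), in the authors' deposited table. Ifng itself was not listed.

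**Figure D3:**
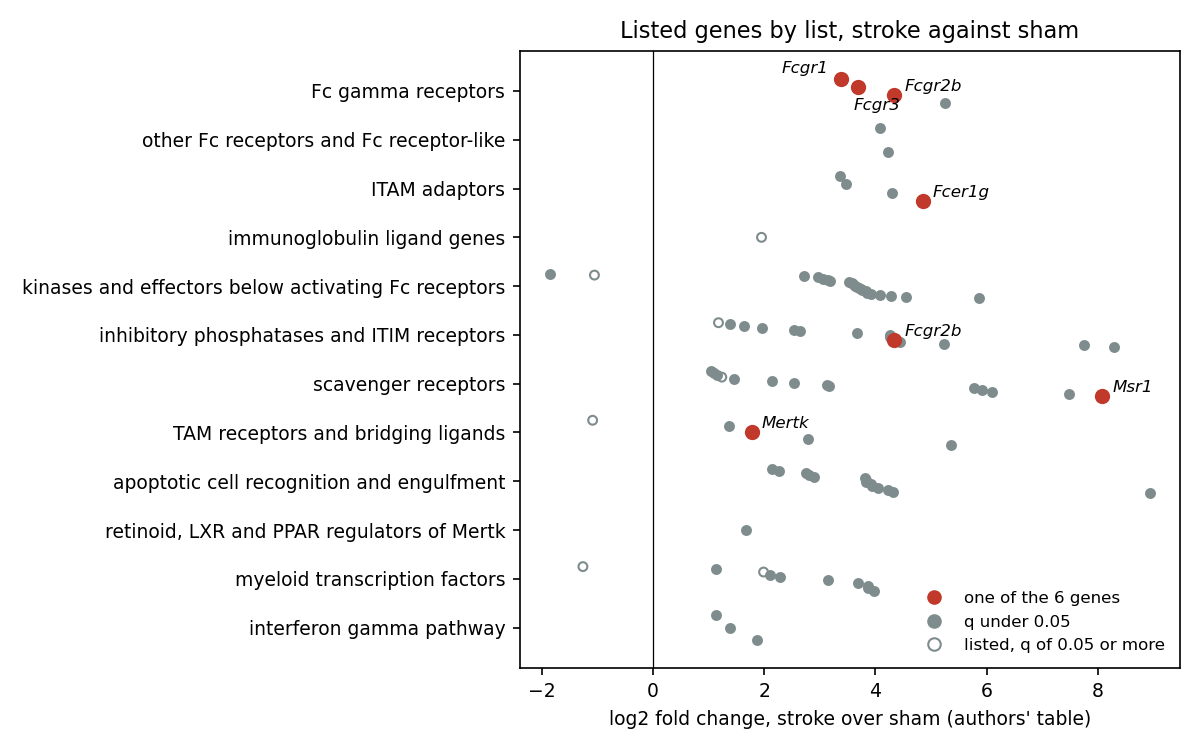
Log2 fold change of stroke over sham from the authors' table for every listed gene of 12 lists, with genes at the floor left out; red points are the 6 genes, filled grey points have a q-value under 0.05 and open points do not. Fcgr2b is drawn in 2 lists, Msr1 lies at 8.08 and Mertk at 1.77, and 3 genes with a log2 fold change below 0 in these lists are open points while Vav3 is filled.

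Cell type markers moved in the same comparison. Of 12 microglia markers, 11 were listed and rose, and their summed mean was 296 TPM in sham and 2804 TPM in stroke. Of 12 markers of infiltrating monocytes and macrophages, 10 were listed and rose, summing to 66.6 and 4312 TPM. Most of both sums was Lyz2, at 50.8 TPM in sham and 4079 TPM in stroke. Ccr2 (0.0714 and 1.86 TPM), Chil3 (0.0467 and 1.61) and Plac8 (2.95 and 7.87) were low in both groups, and Ly6c2 was not listed. Fn1 (9.37 and 150 TPM), Ms4a7 (1.22 and 45.1) and Arg1 (0.107 and 19.8) were higher in stroke. The part of infiltrating cells in this sum was not tested. Of 10 neutrophil markers, 6 were listed higher and 5 rose, summing to 14.1 and 88.5 TPM. Most of this sum was Csf3r, at 7.48 TPM in sham and 67.9 TPM in stroke. S100a8 was at 1.59 and 3.59 TPM and S100a9 at 3.49 and 7.46 TPM, while Ly6g, Retnlg, Ngp and Camp were not listed. Of 13 lymphocyte markers, 6 were listed higher and 3 rose, summing to 0.858 and 5.68 TPM, with Cd3d at the floor in sham. Of 8 astrocyte markers, Aqp4 and Gfap rose, and of 8 neuron markers, 6 were listed lower and 5 fell, summing to 2392 and 980 TPM. Of the listed markers, Fcrls, P2ry12 and Mrc1 also stand in the lists above. So do Cd163, Fcer1a, Ms4a2, Cd3e, Cd79a and Jchain among the markers not listed. None of 8 mast cell and basophil markers was listed, Fcer1a, a partner chain of Fcer1g, among them. The log2 fold change of Mertk was below that of all 11 listed microglia markers. Those of Fcgr1 and Fcgr3 were above 7 and 8 of them, and those of Fcgr2b, Fcer1g and Msr1 were above all 11. The part of cell number in the rise of the 6 genes was not tested.

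The genes of the lists nearest to each receptor by log2 fold change, over 92 listed genes, were Hcst and Cd79b for Fcgr1 (differences 0.02 and 0.09), Cd300a and Tyrobp for Fcgr2b (0.03 and 0.05), Irf8 and Was for Fcgr3 (0.01 and 0.01) and Ifngr1 and Stat6 for Mertk (0.10 and 0.10). For the genes in both tables, likeness was the distance between centred log2 means of the 3 groups, over 753 genes. The nearest to Fcer1g were Birc5 (distance 0.07), Hmmr (0.07) and Glipr1 (0.09). Those nearest to Msr1 were an identifier named Lilrb4a (0.21), Htr2b (0.24) and Bach2os (0.43). With 3 group means, many genes can lie close together.

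The second table sets mmpp against stroke. None of the 6 genes had a q-value under 0.05 in that comparison, and 2, Fcer1g and Msr1, were listed lower at an unadjusted p-value under 0.05. No source used here names the program of that test. Over the 19616 genes that the authors adjusted, 0.0306% were lower and 0.0102% higher with a q-value under 0.05, and 3.58% were listed lower and 1.24% higher with any q-value under 1. The comparison uses the same stroke samples as the one with sham, so values of the comparisons are given side by side.

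Fcer1g was at a mean of 53.5 TPM in sham, 1543 TPM in stroke and 601 TPM in mmpp in the authors' deposited tables. The mmpp mean was 39.0% of the stroke mean, with a log2 fold change of -1.36 (the authors reported p = 0.023 and q = 0.726 in their deposited table). Msr1 was at a mean of 0.0948 TPM in sham, 25.7 TPM in stroke and 5.76 TPM in mmpp in the authors' deposited tables. Its mmpp mean was 22.5% of the stroke mean, with a log2 fold change of -2.15 (the authors reported p = 0.00439 and q = 0.51 in their deposited table). Both mmpp means thus lay between those of stroke and sham. The mmpp mean was 11.2 times the sham mean for Fcer1g and 60.8 times for Msr1, ratios for which the tables used here give no test. The sham mean of Msr1 was near 0, which leaves the size of its ratio uncertain, so the 2 ratios are not compared. Fcgr1, Fcgr2b, Fcgr3 and Mertk were not listed, nor was Fcgr4 or Tyrobp, and their mmpp means were not analysed here.

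Of all 1021 genes listed in mmpp against stroke, 757 were lower, and the median log2 fold change of all those off the floor was -1.31. The 12 lists had 29 identifiers there, all lower, Fcer1g and Msr1 among them. Leaving out the 6 genes, 27 identifiers remained, with a median of -1.39. A single one of them, an identifier named Lilrb4a, had a q-value under 0.05, at 174 TPM in stroke and 18.03 TPM in mmpp (q = 0.0344, authors' deposited table). The other identifier of that name was at 32.0 and 5.87 TPM (q = 0.263, authors' deposited table). No statement on a shared response follows for the rest, whose q-values were above 0.05.

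Of 26 kinase and effector genes, 9 were listed lower. Cybb, the catalytic subunit of the phagocyte NADPH oxidase, was at 13.9 TPM in stroke and 4.68 TPM in mmpp (q = 0.752, authors' deposited table). Fgr, Plcg2, Rac2, Was, Lcp2, Ncf4 and Card9 were also listed, with log2 fold changes from -1.39 for Was to -1.11 for Card9 in the authors' deposited table. Syk and Vav1 were not listed.

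Of the 16 inhibitory genes, 6 symbols were listed lower. Besides Lilrb4a these were Pirb, at 13.5 TPM in stroke and 2.77 TPM in mmpp (q = 0.262, authors' deposited table), Ptpn6, at 109 and 49.4 TPM (q = 0.689, authors' deposited table), Cd300lf, Pilra and Siglece. Fcgr2b and Inpp5d were not listed.

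Among the scavenger receptor genes, 6 were listed lower, Msr1 included. Cd68 was at 2398 TPM in stroke and 814 TPM in mmpp (q = 0.72), Cd36, a fatty acid and lipoprotein receptor, at 17.8 and 4.48 TPM (q = 0.73), and Clec7a, the receptor dectin-1, at 101 and 34.0 TPM (q = 0.791), in the authors' deposited table. Mrc1 and Scara5 were low in both groups, at 1.93 and 1.28 TPM in stroke and 0.605 and 0.456 TPM in mmpp in the authors' deposited table. Pros1 was the only listed gene around Mertk, at 29.9 and 13.7 TPM (q = 0.73, authors' deposited table). The engulfment genes Dock2, Abca1 and Anxa1 were listed at 24.6, 34.7 and 15.3 TPM in stroke and 9.97, 10.3 and 5.47 TPM in mmpp in the authors' deposited table. The transcription factor genes Maf and Runx1 were listed at 21.7 and 5.16 TPM in stroke and 6.98 and 2.17 TPM in mmpp in the authors' deposited table.

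**Figure D4:**
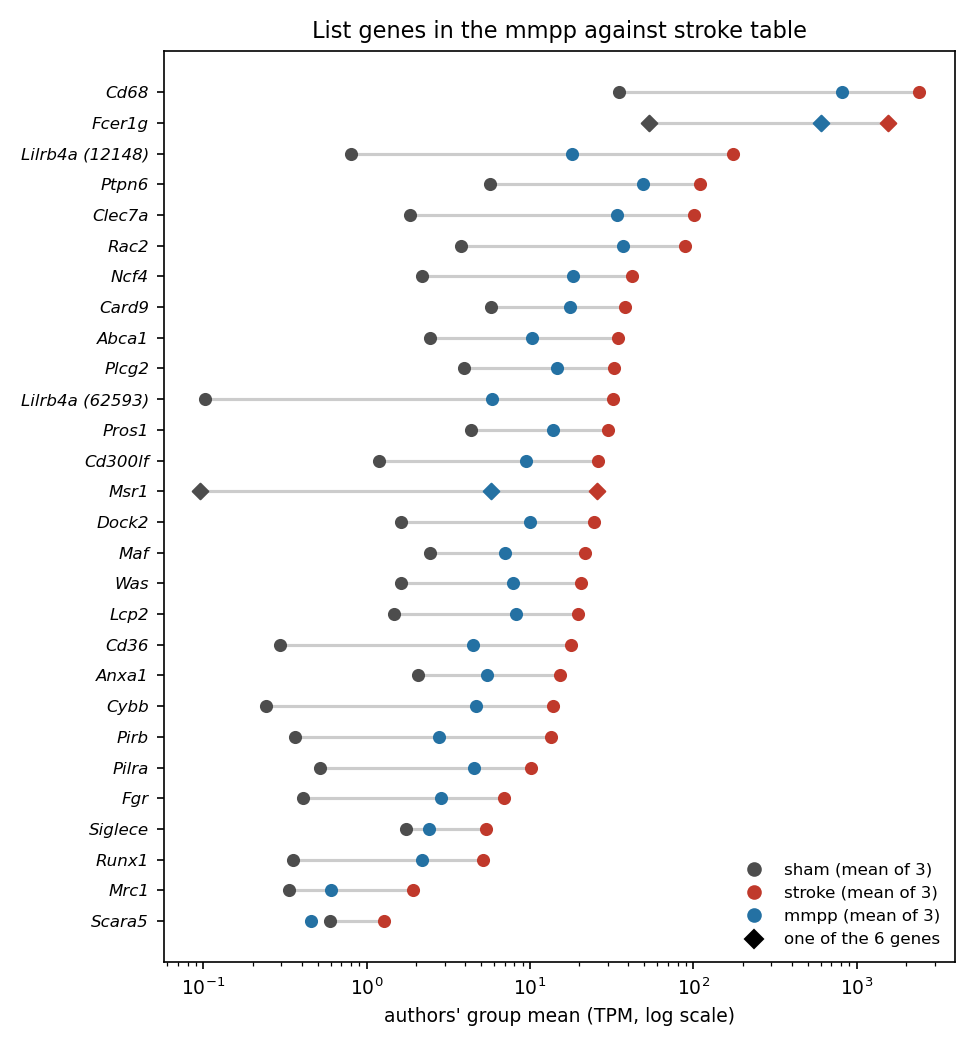
Authors' group means in TPM (log axis) in sham, stroke and mmpp for 28 of the 29 list identifiers in the mmpp against stroke table, each a mean of 3 samples with no spread given; diamonds mark Fcer1g and Msr1, and figures after Lilrb4a end its 2 identifiers. The mmpp mean is below the stroke mean for all 28, as their listing as lower requires, and for Scara5 it is also below the sham mean.

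Cell type markers were listed beside these genes, none with a q-value under 0.05. Of 12 microglia markers, 3 were listed lower, Gpr34, P2ry13 and Sall1, summing to 87.8 TPM in stroke and 36.4 TPM in mmpp. Of 12 markers of infiltrating monocytes and macrophages, 4 were listed lower, Ccr2, Fn1, Itga4 and Mrc1, summing to 156 and 25.1 TPM. Most of both sums was Fn1, at 150 TPM in stroke and 23.2 TPM in mmpp. The neutrophil marker Mmp8 was listed at 5.35 and 0.708 TPM (q = 0.158) and the lymphocyte marker Cd4 at 3.04 and 0.743 TPM (q = 0.263) in the authors' deposited table. The neuron marker Slc17a6 was listed higher, at 20.7 and 55.3 TPM (q = 0.772, authors' deposited table), and no astrocyte, mast cell or basophil marker was listed. The part of these cell types in the levels of Fcer1g and Msr1 was not tested.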

How the data were processed

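RNA from 9 thalamus samples was sequenced, 3 each of sham, stroke and mmpp, grouped by the sample titles. Per the labels' protocols, libraries were made from TRIzol-extracted RNA with the SMARTER mRNA kit. Bowtie2 2.2.3, TopHat2 2.0.12, HTSeq 0.6.0 and GRCm39 are the tools and build given, with no roles, per the submitters' processing notes; strand setting, the treatment of reads matching several genes and the test's program are not given in the sources used here. Per the file headers, the authors deposited for each gene the group mean TPM, the log2 fold change and its p-value and q-value. The deposited log2 fold change equals the log2 ratio of the means within 5.4e-11. Every gene in the deposited values had a p-value of at most 0.05 and a log2 fold change of 1 or more in size, as checked. Depth, spread per sample and errors are therefore unknown.

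The words rose and fell are kept for an authors' q-value under 0.05. The number of genes adjusted was recovered from p- and q-values by the Benjamini-Hochberg formula (whole ranks within 0.001), tested on simulated data of 20000 genes, where it was recovered in 20 of 20 tables. In the files, 96 genes of the stroke against sham table and 74 of the other had a q-value of 1 and are left out of the shares of adjusted genes. Identifier and symbol of all 6 genes matched the reference table. Analyses used Python 3.11.15 with pandas 2.3.3. The design foresaw a refit from values per library; the authors' values were used instead. The members and lists were chosen with earlier results of these data known. Named genes were the 6 members, for each list the 3 smallest q-values after stroke, every list gene in the mmpp against stroke table, and the nearest genes by likeness. A few genes of these lists are not reported here. Alternatives changed the q-value and fold limits, the pseudocount and the scaling of TPM.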

Additional observations from a re-analysis of the deposited data

How the results depend on the processing

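All 6 genes also passed a q-value limit of 0.01 in stroke against sham, and 5 had a log2 fold change of 2 or more, Mertk being the exception. In mmpp against stroke, none of the 6 passed a q-value of 0.05 or 0.1, and 2 passed an unadjusted p-value of 0.05. The TPM total outside the listed genes differed by -0.17 (log2) in the stroke comparison and 0.07 in the mmpp comparison. This is a change of a total, and a shift of single genes was not tested. Rescaling to the total outside the listed genes gave medians of 4.18 and -1.83 for the listed members, against 4.01 and -1.76 as deposited, and no direction turned. A pseudocount of 1 TPM gave 3.86 and -1.67, and leaving out Fcgr2b and Fcgr3 gave 4.11 in the former. Pseudocounts were tried for the 6 genes alone, and among them Msr1 after stroke was the only one whose fold moved by over 1.5 times, with log2 fold changes of 7.05 and 4.61 under the pseudocounts of 0.1 and 1 TPM. Counts of the 12 lists after stroke were equal at a q-value of 0.01. No paired analysis was possible because the tables used here hold group means only, and leaving out single replicates was not run for the same reason. Group means set the limit of what can be said: no spread, depth or overlap between samples is known.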

Other observations

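Fcgr2b, Fcgr4 and Fcgr3 are next to each other on chromosome 1 in the RefSeq annotation of GRCm38.p6, and Fcer1g follows after 7 further protein-coding genes, as counted from the 11 genes between and including Fcgr2b and Fcer1g. All 4 of these receptor genes rose after stroke. Of the genes between Fcgr3 and Fcer1g, Cfap126, a gene of motile cilia, rose from 18.9 to 45.8 TPM (q = 0.0129, authors' deposited table), and Nr1i3, a nuclear receptor gene, was listed lower at 1.84 and 0.710 TPM (q = 0.163, authors' deposited table). These neighbours were named after their values were seen.

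The KEGG terms in the authors' tables place only Fcgr1 of the 6 genes in Fc gamma R-mediated phagocytosis, and Fcgr1 and Msr1 in the phagosome. Fcgr2b, Fcgr3, Fcer1g and Mertk are in neither of these terms. Of 31 listed genes of Fc gamma R-mediated phagocytosis, 21 were listed higher after stroke, 20 of which rose, and 10 lower, 6 of which fell, in the authors' deposited table. Of 68 listed phagosome genes, 53 rose and 4 fell in the authors' deposited table. Over all 4071 genes listed in that comparison, 2469 were listed higher, 2012 of which rose, and 1602 lower, 701 of which fell. No set test was run. In mmpp against stroke, 757 of all 1021 listed genes were lower. There 6 genes of Fc gamma R-mediated phagocytosis were listed, 5 lower and 1, Pla2g4d, higher, and 14 phagosome genes, all lower. None of these had a q-value under 0.05 in the authors' deposited table, and Pla2g4d was named after its values were seen.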
